A study of Homo sapiens with 6 samples.

Results

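Urokinase, its receptor and the serpin maspin were measured as 3 of the 89 genes of a cancer pathway PCR array, and were taken by name: PLAU, PLAUR and SERPINB5. The array was run to ask which transcripts change in Panc-1, an established line from a human pancreatic carcinoma, when the oncogene CaSm is switched on by doxycycline (a tet-on system). Each of the 3 conditions was measured on 2 plates, 6 plates in total. Driver cells carried the tet-on plasmid alone and were grown with doxycycline at 1 μg/ml. The tet-on CaSm cells carried the plasmid with full-length human CaSm as well, and were grown either with doxycycline at 1 μg/ml (induced) or without it (non-induced). Culture lasted 4 weeks in each condition. All cells carried the tet-on driver plasmid and its G418 selection. According to the methods, both lines were stable pools, and the tet-on CaSm pool was made from a subset of the driver pool and selected with puromycin in addition. Non-induced and driver cells therefore differ in the CaSm plasmid, in puromycin selection and in doxycycline, and these cannot be told apart. Induced and driver cells differ in the CaSm plasmid and its induction and in puromycin selection, which cannot be told apart either. Induced and non-induced cells differ in doxycycline. Driver cells without doxycycline were not on the plates, so doxycycline itself cannot be told apart from CaSm induction. CaSm itself was not analysed here.

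Urokinase (uPA, encoded by PLAU) is a secreted serine protease that converts plasminogen to plasmin, which in turn cleaves matrix proteins and activates pro-metalloproteinases. Its receptor uPAR (encoded by PLAUR) is held in the outer membrane by a lipid anchor, concentrates uPA at the cell surface and binds integrins and vitronectin. Maspin (SERPINB5) belongs by sequence to the serine protease inhibitor family, does not act as a classical inhibitor, and is known as a suppressor of invasion in epithelial tumors. The study describes maspin as often raised in pancreatic cancers, and as missing or reduced in breast, prostate and gastric cancers. The uPA system is often abundant in pancreatic cancer.

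The values are threshold cycles (Ct), in PCR cycles, and each additional cycle corresponds to roughly 1 log2 unit less starting template. Expression is given as −ΔCt, the average over the plate's B2M, HPRT1 and GAPDH wells minus the Ct of the gene, in log2 units. That mean lay between 19.7 and 20.3 on the 6 plates, and 80 to 86 genes per plate had a Ct under 35. CDKN2A, which Panc-1 cells are known to have lost, was late on every plate (Ct 32.1 to 33.9). Of the markers of other cells on the array, GZMA (cytotoxic lymphocytes) had a Ct of 35 or more on 5 of 6 plates and TEK (endothelium) on 4 of 6. Plates are numbered by the tag at the end of their labels, which gives replicates 2 and 3 for driver cells and replicates 1 and 2 for induced as well as non-induced cells. The tags have the form of a date, but the labels do not say what they stand for. Tag 2 holds all 3 conditions, tag 1 lacks driver cells and tag 3 is a driver plate alone. The sources do not state whether the 2 plates per condition represent separate cultures, so p-values measure the spread between these plates, which may be technical. The limma fit moderates the spread of a gene toward that of all genes. The other genes weighed more in it (7.2 to 7.9 prior against 3 residual degrees of freedom). In a pool of cells, a change in every cell and a change in the share of expressing cells cannot be told apart. Ct is compared here between conditions for 1 gene, and not between genes as a level, because each assay has its own efficiency and product.

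PLAUR was higher in both tet-on CaSm conditions than in driver cells, and the smaller difference between induced and non-induced cells did not pass the test. Its Ct was 27.78 and 28.05 in driver cells, 26.75 and 26.96 in non-induced cells, and 25.78 and 26.57 in induced cells. After normalization, −ΔCt was −7.69 and −7.82 in driver cells, −6.41 and −6.78 in non-induced cells, and −6.05 and −6.39 in induced cells. Both driver plates were thus lower than all 4 tet-on CaSm plates, while the lower induced plate and the higher non-induced plate were only 0.02 log2 units apart.

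Relative to driver cells, uPAR message was 2.90-fold higher in induced cells (log2 fold change 1.54, 95% confidence interval 0.98 to 2.10, adjusted p = 0.0015 from limma over all 85 genes tested). It was also 2.23-fold higher in non-induced cells (log2 fold change 1.16, interval 0.60 to 1.72, adjusted p = 0.0236), a call that was lost with the label tag as a block (0.91, adjusted p = 0.453 from limma). Between induced and non-induced cells the difference was 0.38 log2 units (standard error 0.25, interval −0.18 to 0.94, adjusted p = 0.288). Of the 1.54 log2 units between induced and driver cells, 1.16 lay between driver cells and tet-on CaSm cells grown without doxycycline. This split depended on the scale: with B2M alone it was 1.10 of 1.07, and with the plate median of genes under a Ct of 35 it was 0.61 of 1.29, where non-induced against driver cells no longer passed (adjusted p = 0.127 from limma) and induced against non-induced cells did (0.68, adjusted p = 0.0422). Against the mean of both controls the difference was 0.96 log2 units or 1.94-fold (interval 0.47 to 1.44, adjusted p = 0.0083).

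**Figure D1:**
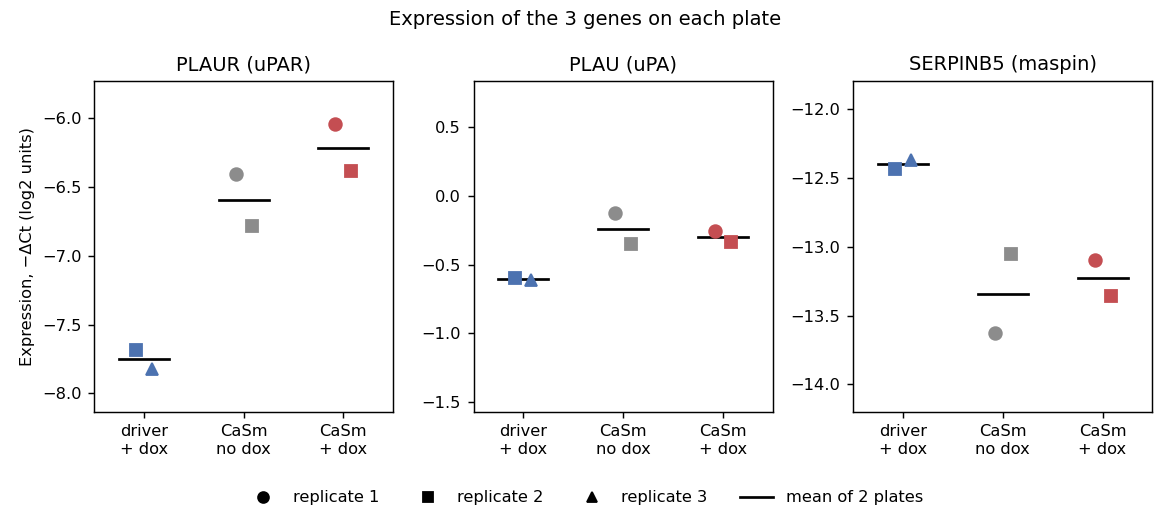
Expression of PLAUR, PLAU and SERPINB5 on each plate as −ΔCt in log2 units (vertical axis, each panel spanning the same number of log2 units), by condition (horizontal axis); each point is a plate, its shape gives the replicate, and the line is the mean of 2 plates. The driver plates lie below the tet-on CaSm plates for PLAUR and PLAU and above them for SERPINB5.

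The label tag is shared between plates of different conditions, and within a tag the order of the conditions for PLAUR was the same. On the plates with tag 2, PLAUR was 1.30 log2 units higher in induced than in driver cells and 0.90 higher in non-induced than in driver cells. Induced minus non-induced cells gave 0.36 within tag 1 and 0.40 within tag 2. With each of the 6 plates left out, PLAUR stayed 1.37 to 1.71 log2 units higher in induced than in driver cells. Where this leaves 1 plate in a condition, that plate is assumed to vary like those of the other conditions. Leaving out a non-induced plate does not change the plates compared here. Each fit without a driver plate also gave the 3 members 1 shared standard error, so only effect sizes are given. Non-induced minus driver cells gave 1.09 without driver replicate 3, 0.97 without non-induced replicate 1 and 1.35 without non-induced replicate 2.

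The sequence before the PLAUR start is shown with that of SERPINB5 because these are the genes that differed from driver cells, and because mRNAs of AP-1 and ETS factors, families known to act on such promoters, were measured on the same plates. Each line gives the 250 bases before the annotated start (RefSeq, GRCh38.p14). Capitals mark matches to the AP-1 letters TGANTCA and the ETS core letters GGAAG on either strand. The PLAUR window is chr19:43670170-43670419 on the minus strand and the SERPINB5 window is chr18:63476708-63476957 on the plus strand.
PLAUR: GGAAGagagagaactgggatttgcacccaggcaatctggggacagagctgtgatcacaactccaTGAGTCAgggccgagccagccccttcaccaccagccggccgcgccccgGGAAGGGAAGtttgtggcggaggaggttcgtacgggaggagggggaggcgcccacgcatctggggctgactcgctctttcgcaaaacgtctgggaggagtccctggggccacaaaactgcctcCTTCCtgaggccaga
SERPINB5: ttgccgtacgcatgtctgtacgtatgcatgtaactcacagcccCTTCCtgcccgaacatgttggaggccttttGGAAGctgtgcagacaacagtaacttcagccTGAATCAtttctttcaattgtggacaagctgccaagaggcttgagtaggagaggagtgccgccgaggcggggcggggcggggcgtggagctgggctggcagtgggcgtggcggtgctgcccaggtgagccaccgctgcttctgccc

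The PLAUR window holds 1 AP-1 match, which begins 186 bases before the start, and 4 ETS matches. The SERPINB5 window holds 1 AP-1 match, 146 bases before the start, and 2 ETS matches. N stands for any base, and the AP-1 match reads TGAGTCA in PLAUR but TGAATCA in SERPINB5. AP-1 letters occur in 6.57% and ETS letters in 65.1% of all 35116 promoter windows of this length. PLAU has 2 annotated starts in the table. Neither of its windows holds the AP-1 letters, and the second (chr10:73910882-73911131, plus strand) holds 3 ETS matches. Sequence further than 250 bases before each start, distal enhancers included, was not searched. The AP-1 and ETS matches do not overlap each other. A match is a run of letters and not a measured binding site.

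PLAU, the ligand, was detected early, with the third earliest mean Ct of the 89 genes (20.5), and its −ΔCt values spanned less than those of PLAUR or SERPINB5. Its Ct was 20.69 and 20.84 in driver cells, 20.47 and 20.53 in non-induced cells, and 19.99 and 20.52 in induced cells. On the −ΔCt scale the values were −0.60 and −0.61 in driver cells, −0.13 and −0.35 in non-induced cells, and −0.26 and −0.34 in induced cells. Driver plates were the lowest, and the plates of the 2 tet-on CaSm conditions overlapped.

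None of the PLAU differences passed the test. Relative to driver cells it was 0.31 log2 units higher in induced cells (interval −0.21 to 0.82, adjusted p = 0.366 from limma) and 0.36 higher in non-induced cells (interval −0.15 to 0.88, adjusted p = 0.405). Induced minus non-induced cells gave −0.06 (interval −0.57 to 0.45, adjusted p = 0.911), and induced cells minus both controls 0.12 (interval −0.32 to 0.57, adjusted p = 0.678). The intervals against driver cells reach 0.82 and 0.88 log2 units, so the plates do not show that uPA message was equal. Their width draws largely on other genes: the PLAU standard error was 0.23, and 0.098 without moderation. The sign against driver cells turned in induced cells with B2M alone as the normalizing gene (−0.16) and in non-induced cells with the plate median of genes under a Ct of 35 (−0.18). On the plates with tag 2, PLAU was 0.26 log2 units higher in induced and 0.24 higher in non-induced than in driver cells.

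SERPINB5 amplified late (mean Ct 33.1 over the 6 plates) and was lower on every tet-on CaSm plate, with or without doxycycline, than on the driver plates. Its Ct was 32.53 and 32.60 in driver cells, 33.97 and 33.23 in non-induced cells, and 32.83 and 33.54 in induced cells. Every one of these values was under the Ct limit of 35, so none was replaced by the limit. Apart from the 33.97 in non-induced cells, they lie in the Ct range of CDKN2A (32.1 to 33.9), the gene said above to be lost from Panc-1 cells. This sets late Ct values side by side and does not compare levels, since each assay has its own efficiency. The log2 fold change of CDKN2A in induced against driver cells was −0.84 (standard error 0.38, adjusted p = 0.119 from limma). How far the SERPINB5 values stand above what the assay reads without its transcript was not tested, and the differences below carry that limit. The −ΔCt values were −12.44 and −12.37 in driver cells, −13.63 and −13.05 in non-induced cells, and −13.10 and −13.36 in induced cells. The driver plates did not overlap with any tet-on CaSm plate, and both induced plates lay within the range of the non-induced plates.

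Maspin message fell by 0.82 on the log2 scale from driver to induced cells, or 1.77-fold (interval −1.41 to −0.24, adjusted p = 0.0428 from limma), and was not called with the label tag as a block (−0.71, adjusted p = 0.249). Non-induced cells were lower than driver cells by a slightly larger amount, with a log2 fold change of −0.94 or 1.91-fold (interval −1.52 to −0.35), and missed the threshold with an adjusted p of 0.0538 from limma. The unadjusted p was smaller in non-induced cells (0.0047) than in induced cells (0.0101 from limma), but the adjustment depends on how many genes pass, which was 6 there and 20 against driver cells in induced cells. The difference between these comparisons is induced minus non-induced cells, where SERPINB5 gave 0.11 (standard error 0.26, interval −0.47 to 0.70, adjusted p = 0.803). Against both controls the log2 fold change was −0.36 (interval −0.86 to 0.15, adjusted p = 0.275).

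**Figure D2:**
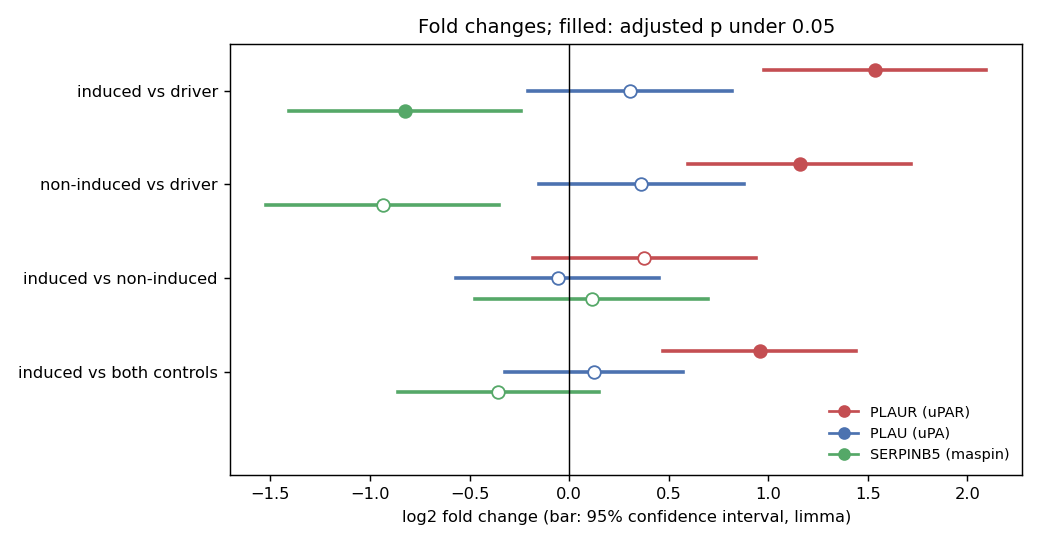
Log2 fold change (horizontal axis) of PLAUR, PLAU and SERPINB5 in 4 comparisons (vertical axis), with the 95% confidence interval from limma as bars; filled circles have an adjusted p under 0.05 over all genes tested. PLAUR passed in 3 comparisons and SERPINB5 in induced against driver cells, at −0.82, and the intervals of all 3 genes include 0 for induced against non-induced cells.

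The call for SERPINB5 rested on the full set of plates. With only the plates compared, its adjusted p against driver cells was 0.0528 from limma. Induced against driver cells gave −0.95 to −0.69 with 1 of the 6 plates omitted at a time. The difference was −0.95 without induced replicate 1, −0.69 without induced replicate 2, −0.86 without driver replicate 2 and −0.79 without driver replicate 3. Within tag 2, SERPINB5 was 0.92 log2 units lower in induced and 0.62 lower in non-induced than in driver cells. Induced minus non-induced cells gave 0.53 within tag 1 and −0.30 within tag 2, so the tags differed in sign.

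Across the 3 genes, induced and driver plates did not overlap for any member, and 2 of 3 members had an adjusted p under 0.05. Of all 85 genes tested in that comparison, 54.1% had plates that did not overlap and 23.5% had an adjusted p under 0.05. In non-induced against driver cells, again no member overlapped and 1 of 3 passed, against 50.6% and 7.06% of 85 genes. In induced against non-induced cells 1 of 3 members did not overlap and none passed the limma test, with no unadjusted p under 0.05, against 61.4% and 24.1% of 83 genes. Against both controls 1 of 3 did not overlap and 1 of 3 passed, against 36.5% and 22.4% of 85 genes. PLAUR and SERPINB5 are among the genes the study itself singled out on these plates, so their counts are no independent evidence of a direction. The comparisons share plates and are not independent of each other.

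PLAUR had the 4th highest log2 fold change of 85 genes in induced against driver cells and the 2nd highest of 85 in non-induced against driver cells. Against non-induced cells it was the 15th highest of 83. SERPINB5 had the 12th lowest log2 fold change in induced against driver cells and the 3rd lowest in non-induced against driver cells. The median log2 fold change of all genes tested was −0.08, 0.20 and −0.21 in induced against driver, non-induced against driver and induced against non-induced cells. PLAUR was above and SERPINB5 below that median in both comparisons with driver cells, and both were above it against non-induced cells.

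**Figure D3:**
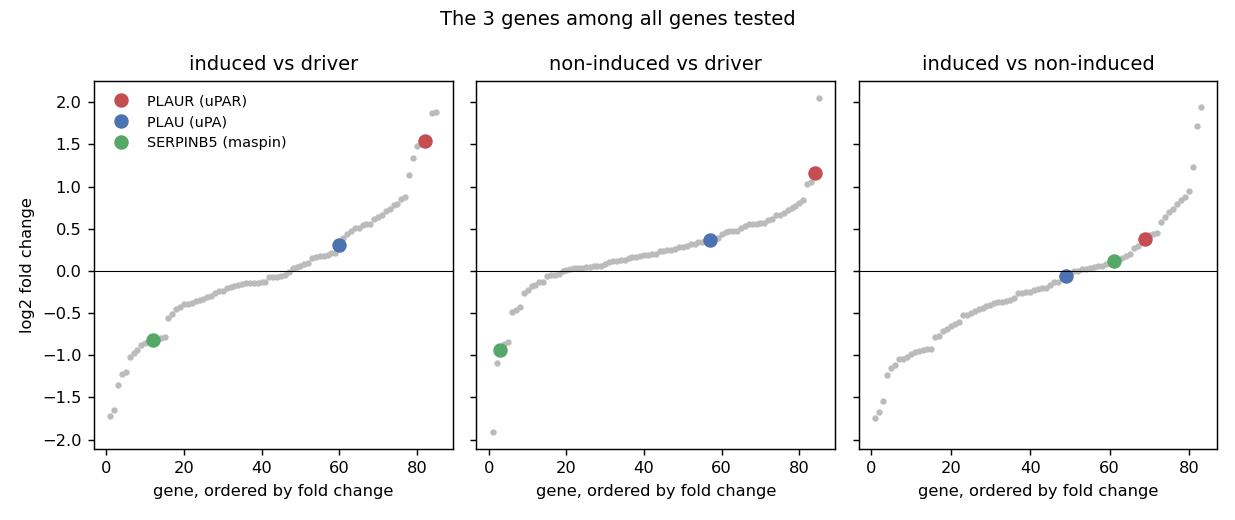
Log2 fold change (vertical axis) of every gene tested, ordered from lowest to highest (horizontal axis), in 3 comparisons; grey points are the other genes and colored points PLAUR, PLAU and SERPINB5. PLAUR (1.54 and 1.16) and SERPINB5 (−0.82 and −0.94) lie toward opposite ends against driver cells, and all 3 lie between −0.06 and 0.38 against non-induced cells.

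The normalizing genes moved to some extent with induction, and this bears on each −ΔCt value. B2M had a Ct of 20.59 and 20.86 in driver cells, 20.81 and 20.71 in non-induced cells, and 19.78 and 20.33 in induced cells. GAPDH had 18.01 and 17.97, 18.23 and 18.06, and 17.89 and 18.47 in the same order. HPRT1 had 21.68 and 21.86, 21.99 and 21.76, and 21.53 and 21.75. The difference in Ct between 2 genes on the same plate does not use the normalizing genes at all. It also removes any offset that a plate gives to all genes, and was therefore taken for each pair of members.

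The balance of receptor to ligand message was ordered by condition without overlap. How many other gene pairs separate in this way was not counted. Among single genes, plates did not overlap for 54.1% in induced against driver, 50.6% in non-induced against driver and 61.4% in induced against non-induced cells. The Ct of PLAU minus that of PLAUR, which is the log2 ratio of PLAUR over PLAU up to a constant of the assays, was −7.09 and −7.21 in driver cells, −6.28 and −6.43 in non-induced cells, and −5.79 and −6.05 in induced cells. Induced cells were 1.23 log2 units or 2.35-fold above driver cells, and non-induced cells 0.80 or 1.74-fold above driver cells. Induced cells were 0.43 log2 units or 1.35-fold above non-induced cells, with SDs of 0.18 and 0.11 (n = 2 plates each). With each driver or induced plate left out, the difference of induced from driver cells stayed between 1.10 and 1.36. No p is given for these ratios, since the smallest two-sided p of an exact permutation test is 0.333 for 2 plates against 2.

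Of the 3 ratios, receptor over maspin message differed most from driver cells. This follows from the fold changes above, where PLAUR was the highest and SERPINB5 the lowest of the 3 members. Ratios with SERPINB5 carry the limit stated above for its late Ct. The log2 ratio of PLAUR over SERPINB5 was 4.75 and 4.55 in driver cells, 7.22 and 6.27 in non-induced cells, and 7.05 and 6.97 in induced cells. Relative to driver cells it was 2.36 log2 units or 5.13-fold higher in induced cells and 2.10 or 4.27-fold higher in non-induced cells. Both induced plates fell within the range of the non-induced plates, whose SD was 0.67 (n = 2 plates). The log2 ratio of PLAU over SERPINB5 was 11.8 on both driver plates, 13.5 and 12.7 on the non-induced plates, and 12.8 and 13.0 on the induced plates, and again the tet-on CaSm conditions overlapped. Relative to driver cells this ratio was 2.19-fold higher in induced and 2.46-fold higher in non-induced cells.

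**Figure D4:**
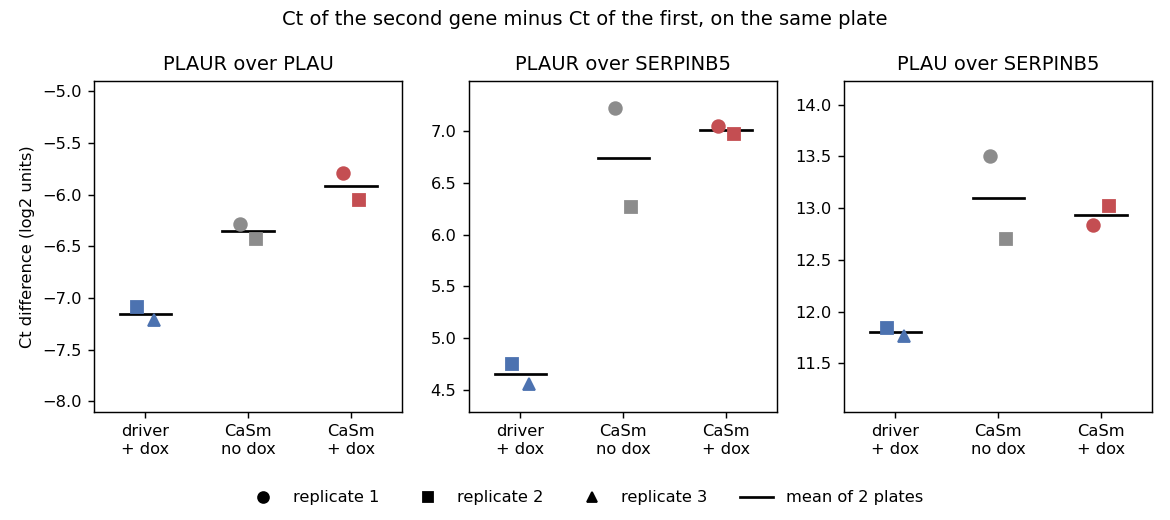
Ct of the second gene minus Ct of the first on the same plate (vertical axis, log2 units), by condition (horizontal axis), for the 3 pairs of members; each point is a plate, its shape gives the replicate, and the line is the mean of 2 plates. PLAUR over PLAU averages −7.15 in driver, −6.36 in non-induced and −5.92 in induced cells, while the other ratios separate driver cells from both tet-on CaSm conditions, which overlap.

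Of 5 metalloproteinases and metalloproteinase inhibitors, 1 changed in induced against driver cells, a share near the 23.5% of all genes tested. MMP1, the interstitial collagenase, rose by 0.85 log2 units in induced cells against driver cells (SE 0.26, limma adjusted p = 0.0384) and by 0.80 against non-induced cells (SE 0.25, adjusted p = 0.0454). Between non-induced and driver cells its difference was 0.05 (limma adjusted p = 0.955). MMP1 amplified late as well, with a Ct between 30.7 and 32.3. The other 4, the gelatinases MMP2 and MMP9 and the inhibitors TIMP1 and TIMP3, had no adjusted p under 0.05 in any comparison in which they were tested. TIMP3 had a Ct of 35 or more on 5 of 6 plates and was left out against non-induced cells. The median of the 5 was −0.06 in induced against driver cells, beside −0.08 for all genes tested.

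Of the 5 integrin subunits known to bind uPAR or to share its vitronectin matrix, 1 changed in induced against driver cells, again beside 23.5% of all genes tested. ITGB3, the β3 subunit of the vitronectin receptor, rose by 1.14 log2 units in induced cells (SE 0.29, limma adjusted p = 0.0199). Its log2 fold change was 0.88 against non-induced cells (adjusted p = 0.0525) and 0.26 in non-induced against driver cells (adjusted p = 0.661). ITGB1, the common β1 subunit, and ITGA3, its α3 partner, gave 0.79 and 0.79 in induced against driver cells and 0.77 and 1.05 in non-induced against driver cells, with adjusted p-values from limma between 0.0504 and 0.12. ITGAV and ITGB5 gave −0.23 and −0.15 in induced against driver cells. The median of the 5 was 0.79 in induced against driver cells, and −0.27 against non-induced cells, where all genes tested had a median of −0.21 and no subunit passed.

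Of 4 AP-1, ETS and NF-κB transcription factors, 1 changed in induced against driver cells and 2 in induced against non-induced cells, all lower, beside 23.5% and 24.1% of all genes tested in either direction. ETS2, an ETS factor that acts on the PLAU enhancer, fell by 1.72 on the log2 scale from driver to induced cells (standard error 0.23, adjusted p = 0.00066 from limma) and by 1.23 from non-induced to induced cells (adjusted p = 0.0050). FOS, a subunit of AP-1, fell by 1.05 from non-induced to induced cells (standard error 0.30, adjusted p = 0.0379) and gave −0.85 against driver cells (adjusted p = 0.064). JUN, the other AP-1 subunit measured, and NFKB1, a subunit of NF-κB, did not pass in any of the 4 comparisons. In non-induced against driver cells none of these 4 factors passed, with adjusted p-values from limma between 0.243 and 0.796. The lowest of these p-values was that of ETS2, which gave −0.49 there. Whether any of these factors acts on the members in these cells was not tested.

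The genes whose profile over the 6 plates was most like each member were found as the smallest root mean square difference of ΔCt, after each gene was centred on its own mean, among 75 other genes under a Ct of 35 on every plate. For PLAUR these were TNFRSF10B, a death receptor for TRAIL, VEGFA, an angiogenic growth factor, and the transcription factor MYC, at 0.210, 0.211 and 0.219 cycles, against a median of 0.681 over the 75 genes. For PLAU the 3 closest genes included PNN and CDK2, at 0.109 and 0.141 cycles, against a median of 0.300. The Ct of PLAU minus that of PNN varied by no more than 0.27 cycles over the 6 plates. For SERPINB5 they were FGFR2, a growth factor receptor, FAS, a death receptor, and NFKB1, at 0.236, 0.248 and 0.360 cycles, against a median of 0.631, and CDKN2A came next at 0.384. No member was among the 3 closest genes of another. PLAU was the 21st closest gene to PLAUR, at 0.518 cycles, which is under the PLAUR median of 0.681, and SERPINB5 the 70th, at 1.09. The rank depends on the reference gene: seen from PLAU, with its median of 0.300, PLAUR was the 57th closest. All genes share the same plates and normalizing genes, so these distances are a description.

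PLAUR stayed higher and SERPINB5 lower than in driver cells under all settings tried, while the size and the call varied. Scaling on B2M alone gave log2 fold changes of 1.07 for PLAUR and −1.29 for SERPINB5 in induced against driver cells, and scaling on GAPDH alone gave 1.93 and −0.43. PLAUR had an adjusted p under 0.05 in 8 of 9 other settings for induced against driver cells and in 4 of 9 for non-induced against driver cells. SERPINB5 did so in 2 of 8 and in 3 of 8. Against driver cells, the 3 members shared 1 standard error with GAPDH alone (0.34) and with the replicate block (0.40). Against non-induced cells PLAUR passed in 1 of 9, with the plate median of genes under a Ct of 35 as the scale, and its sign turned with B2M alone (−0.025).

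**Figure D5:**
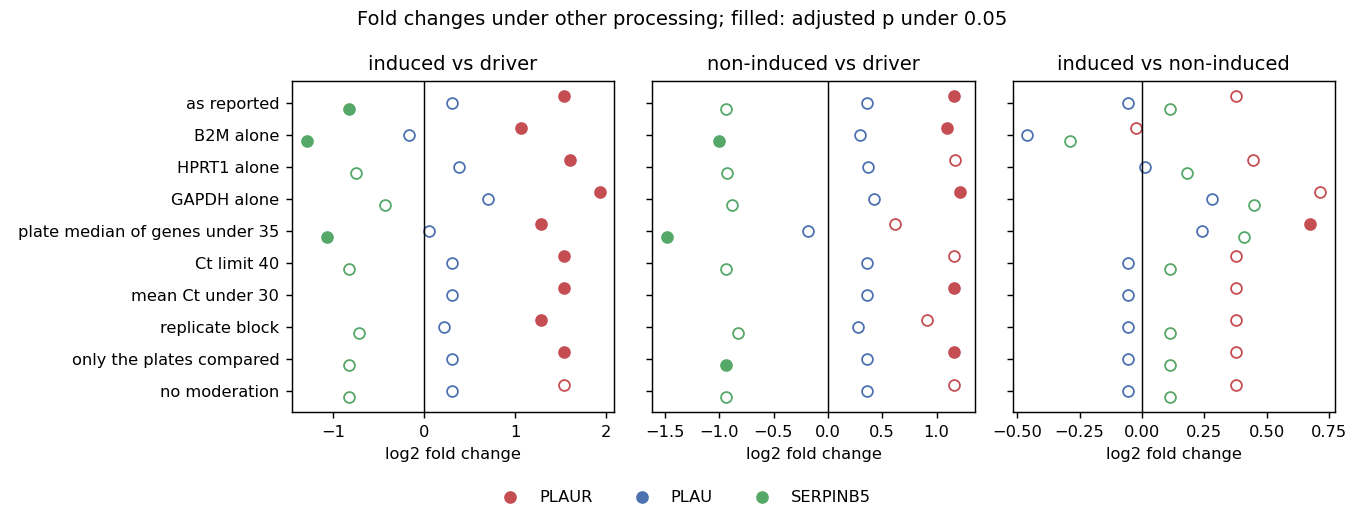
Log2 fold change (horizontal axis) of PLAUR, PLAU and SERPINB5 as reported and under 9 other settings (vertical axis) in 3 comparisons; filled circles have an adjusted p under 0.05. PLAUR stays above 0 and SERPINB5 below 0 in both comparisons with driver cells, and against non-induced cells the points lie on both sides of 0.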

How the data were processed

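The authors ran a SABiosciences Cancer PathwayFinder array on a Roche Lightcycler and deposited a Ct for 89 genes on each of 6 plates, without normalization; how the threshold was set is not given in the sources used here. A second deposited table holds the authors' own signed fold changes and was not used. Groups and label tags come from the sample titles. Each Ct was capped at 35 and referred to the average of B2M, HPRT1 and GAPDH, the genes named in the methods. These 3 genes were not tested, nor were genes that reached the cap on every plate compared. Condition means of −ΔCt were fitted with limma 3.58.1 (R 4.3.3), using the 6 plates together (3 residual degrees of freedom). Variances were moderated by empirical Bayes, and p-values were adjusted by Benjamini-Hochberg over all genes tested, with a threshold of 0.05. The fit was tested on simulated data. Python 3.11.15 and matplotlib 3.10.9 were used otherwise. All 3 gene names matched the RefSeq table for GRCh38.p14. The members and gene lists were chosen with earlier results of these data known. Named were the members, the listed genes and, for each member, the 3 genes with the most similar profile, except that 1 listed transcription factor and 1 gene of similar profile are not reported here. Alternatives were other normalizing genes, a limit of 40 cycles, a filter that keeps genes whose mean Ct is under 30, a replicate block, only the plates compared, no moderation and leaving out each plate. Values within a label tag and a crossed block were added after seeing the data. The number of plates limits the precision.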

Additional observations from a re-analysis of the deposited data

How the results depend on the processing

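All values are log2 fold changes unless called counts. Another scale moves every gene of a comparison by 1 amount: in induced against driver cells −0.47 with B2M alone, 0.39 with GAPDH alone and −0.25 with the plate median, in induced against non-induced cells −0.40, 0.34 and 0.30, and in non-induced against driver cells −0.54 with the plate median. With B2M alone, PLAU turned to −0.16 in induced against driver cells and −0.31 against both controls. In induced against non-induced cells, B2M alone turned PLAUR to −0.025 and SERPINB5 to −0.29. It brought SERPINB5 under the threshold in non-induced against driver cells (−1.0) and against both controls (−0.79). With HPRT1 alone, SERPINB5 lost its call against driver cells (−0.75), PLAUR lost it in non-induced against driver cells (1.17), and PLAU turned to 0.01 against non-induced cells. With GAPDH alone, SERPINB5 lost its call (−0.43) and turned to 0.01 against both controls, and PLAU turned to 0.28 against non-induced cells. With the plate median of genes under a Ct of 35, PLAU turned to 0.24 against non-induced cells and −0.18 in non-induced against driver cells, PLAUR gained a call against non-induced cells (0.68) and lost the one in non-induced against driver cells (0.61), and SERPINB5 gained one there (−1.48). With a Ct limit of 40, SERPINB5 against driver cells (−0.82) and PLAUR in non-induced against driver cells (1.16) lost their calls at the same size. Without moderation, PLAUR (1.54, 1.16 and, against both controls, 0.96) and SERPINB5 (−0.82) lost every call. With only the plates compared, SERPINB5 lost its call against driver cells (−0.82) and gained one in non-induced against driver cells (−0.94). SERPINB5 has no value among genes with a mean Ct under 30. The cause of these changes was not tested.

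The labels do not say what the tag stands for. Deviations from the condition means of plates with the same tag correlated at −0.17 (induced and non-induced, tag 1), −0.35 (induced and driver, tag 2) and 0.26 (non-induced and driver, tag 2) over 76 genes. With 2 plates per condition, the deviations of a gene mirror each other, so the value for tag 1 is also that for tag 2. These correlations cannot decide whether the tag is a pairing, and the main fit did not take it as one. With the replicate block, SERPINB5 against driver cells (−0.71) and PLAUR in non-induced against driver cells (0.91) were not called, and 2 genes were called in the latter comparison in place of 6. With the tags of the induced plates crossed, the count against non-induced cells was 19, beside 20. Within tag 2, values that moved by more than the spread between plates were 1.30 for PLAUR in induced against driver cells, 0.24, 0.90 and −0.62 for PLAU, PLAUR and SERPINB5 in non-induced against driver cells, and −0.30 for SERPINB5 against non-induced cells, where tag 1 gave 0.53.

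Counts of genes called in induced against driver cells were 20 as reported, 44 with B2M alone, 11 with HPRT1, 10 at a limit of 40, 11 with only the plates compared and 5 without moderation. Against non-induced cells they were 20, 42 with B2M alone, 6 with HPRT1 alone, 8 with a limit of 40 and 4 without moderation. In non-induced against driver cells they were 6, 2 with HPRT1 alone, 1 with a limit of 40 and 1 without moderation. Against both controls they were 19, 57 with B2M alone and 4 without moderation. The direction of the calls turned with the scale. In induced against driver cells 9 of 20 calls were higher, beside 7 of 44 with B2M alone, 7 of 11 with HPRT1 alone and 24 of 29 with GAPDH alone. Against non-induced cells 5 of 20 were higher, beside 2 of 42 with B2M alone, 11 of 15 with GAPDH alone and 13 of 22 with the plate median. In non-induced against driver cells 3 of 6 were higher, beside 4 of 6 with GAPDH alone and 1 of 7 with the plate median. Against both controls 9 of 19 were higher, beside 8 of 57 with B2M alone and 18 of 23 with GAPDH alone.

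With each plate left out, the counts ranged from 11 to 17, 3 to 21, 1 to 9 and 13 to 25 in induced against driver, induced against non-induced, non-induced against driver and induced against both controls. In the same order, PLAUR ranged from 1.37 to 1.71, 0.19 to 0.57, 0.97 to 1.35 and 0.79 to 1.13, PLAU from 0.27 to 0.35, −0.17 to 0.057, 0.25 to 0.48 and 0.07 to 0.18, and SERPINB5 from −0.95 to −0.69, −0.17 to 0.40, −1.22 to −0.65 and −0.50 to −0.21. For PLAUR against both controls, the lowest value was that without induced replicate 1 (0.79). Ratios of induced to driver cells ranged from 1.10 to 1.36 for PLAUR over PLAU, 2.26 to 2.46 for PLAUR over SERPINB5 and 1.04 to 1.22 for PLAU over SERPINB5.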
